A study of Homo sapiens with 16 samples.

Results

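Amino acid transporters of the plasma membrane were followed in HCC70 cells through 8 genes: SLC1A5, SLC7A5, SLC3A2, SLC7A11, SLC38A1, SLC38A2, SLC1A4 and SLC7A1. The genes were chosen by name as transporters, with earlier results of these data known, and by having a row in the table of normalised read counts. All 8 of 8 were present among the 11282 genes of the table. Presence was the only measured value that the rule states, but the names were not chosen blind to these data. Levels of the genes are given as a description. HCC70 is a human cell line from a basal-like, triple-negative breast cancer. The cells were infected with short hairpin RNA (shRNA) constructs, which lower a transcript that matches the hairpin, in a series on regulators of cell heterogeneity.

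The constructs targeted KLF5, RBPJ, NFIB or FOXA1, which all encode DNA-binding regulators, or were labelled plko, after the pLKO shRNA vector, or were shRFP, shLACZ and shLUC, named for genes that human cells lack. Each of these 8 constructs had 2 libraries, 16 in all, and the labels give each library its own construct identifier. The 2 libraries of a target therefore carried different hairpins, and the spread between them includes the difference between hairpins. All 16 libraries share the line, the infection and growth in 96-well plates, and no time of harvest is given. The 6 libraries of shRFP, shLACZ and shLUC are called hairpin controls, and plko was kept as a group of its own.

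Cells cannot make the essential amino acids and take them up through carriers in the plasma membrane. SLC1A5 (ASCT2) exchanges neutral amino acids and is a main route for glutamine into many tumour cells, and its relative SLC1A4 (ASCT1) carries small neutral amino acids such as serine and alanine. SLC7A5 (LAT1), which brings in leucine and other large neutral amino acids, and SLC7A11 (xCT), which brings in cystine in exchange for glutamate, are light chains that reach the membrane joined by a disulphide bond to the heavy chain SLC3A2 (CD98). SLC38A1 (SNAT1) and SLC38A2 (SNAT2) carry glutamine, alanine and other small neutral amino acids together with sodium, and SLC7A1 (CAT1) carries arginine and lysine. Several of these genes are known targets of ATF4, the transcription factor that rises when amino acids run short, and SLC7A11 is also a known target of NRF2.

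Read depth ran from 375713 reads in plko library 1 to 3090666 reads in RBPJ library 1, a ratio of 8.23, with a median of 1164801.5. On the deposited scale of reads divided by a size factor per library, called normalised reads, KLF5 stood at 62.6 and 37.3 in the 2 KLF5 libraries, against a mean of 98.7 ± 10.0 (SD, n = 6) in hairpin controls. RBPJ stood at 43.3 and 8.53 normalised reads in the RBPJ libraries, against 48.3 ± 3.91 (SD, n = 6) in hairpin controls, so that RBPJ library 1 lay inside the control range of 43.1 to 54.9. NFIB stood at 238 and 42.2 in the NFIB libraries against 335 ± 22.7 (SD, n = 6) in hairpin controls, and FOXA1 at 24.4 and 58.6 in the FOXA1 libraries against 99.97 ± 33.5 (SD, n = 6). The lowering of the target passed limma's adjusted threshold of 0.05 only for KLF5 (adjusted p = 0.00249). For RBPJ the adjusted p was 0.220, for NFIB 0.164 and for FOXA1 0.178. The libraries labelled RBPJ, NFIB and FOXA1 are therefore called by their labels throughout, and each library is given on its own. Markers of basal-like epithelium were all present, with 8 of 8 genes in the table and a summed level of 3422 to 8609 normalised reads per library, while ESR1, PGR and ERBB2 together summed to 16.8 to 39.1. The level of the basal markers, 7 of which were tested, was uneven. In NFIB library 2, 7 of the 7 were below the hairpin control range (median log2 deviation -1.13), beside 1523 of all 10826 genes. In NFIB library 1, 3 were above it and 0 below, beside 2294 and 1912 of all genes. In FOXA1 library 1, 5 were above and 0 below, beside 1633 and 1741 of all genes. The RBPJ libraries went in opposite directions. In library 1, 0 were above and 4 below, beside 1796 and 1596 of all genes, and in library 2, 4 were above and 0 below, beside 2234 and 1940. In plko library 1, 0 were above and 3 below, beside 2976 and 2962 of all genes.

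The promoter windows shown here belong to the member called between groups, SLC1A5, to the heterodimer partners SLC7A5 and SLC3A2, which varied together, and, as a short stretch, to CHAC1, the gene outside the 8 most like SLC7A5. Each window is the 250 bases before a RefSeq gene start, read 5′ to 3′ in the direction of the gene on build GRCh38.p14, and 7 of the 8 genes had an entry (SLC7A11 is named only). Capitals mark the letters CACGTG (the E-box bound by MYC and its relatives) and TGACNNNGC (the core of the antioxidant element bound by NRF2), on either strand. In the short stretches of 30 bases the capitals mark TGATGNAA, the amino acid response element bound by ATF4 together with C/EBP proteins, likewise on either strand.
SLC1A5, start 1, chr19:46788595-46788844, minus strand: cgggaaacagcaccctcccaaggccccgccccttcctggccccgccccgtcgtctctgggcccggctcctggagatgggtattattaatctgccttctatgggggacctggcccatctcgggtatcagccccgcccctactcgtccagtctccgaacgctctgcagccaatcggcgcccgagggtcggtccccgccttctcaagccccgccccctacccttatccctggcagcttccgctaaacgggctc
SLC7A5, chr16:87869508-87869757, minus strand: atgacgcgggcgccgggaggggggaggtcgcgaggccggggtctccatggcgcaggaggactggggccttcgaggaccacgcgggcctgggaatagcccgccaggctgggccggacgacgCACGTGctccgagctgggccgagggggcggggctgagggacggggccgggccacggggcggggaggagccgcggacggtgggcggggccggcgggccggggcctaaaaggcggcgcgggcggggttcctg
SLC3A2, start 1, chr11:62881449-62881698, plus strand: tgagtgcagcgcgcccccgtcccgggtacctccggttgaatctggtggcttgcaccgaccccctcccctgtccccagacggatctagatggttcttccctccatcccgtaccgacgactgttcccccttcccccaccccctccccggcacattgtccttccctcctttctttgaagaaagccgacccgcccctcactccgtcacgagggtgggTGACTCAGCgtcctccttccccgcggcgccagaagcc
SLC1A5, start 3, 30 bases, chr19:46784893-46784922, minus strand: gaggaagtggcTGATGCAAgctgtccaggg
CHAC1, 30 bases, chr15:40953251-40953280, plus strand: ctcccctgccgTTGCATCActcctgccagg

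The window of SLC1A5 start 1 held none of the capitalised motifs, whereas the window of its start 3 held TGATGNAA 97 to 90 bases before that start. TGATGNAA was found in 3.144% of all 35116 windows of that length; counted by gene over any of its windows, it was found in 1 of the 7 members with an entry and in 3.886% of all genes. The SLC7A5 window held CACGTG 130 to 125 bases before the start, letters present in 6.345% of windows and also in the window of SLC1A5 start 2. TGACNNNGC, present in 10.91% of windows, stood 37 to 29 bases before SLC3A2 start 1, 85 to 77 bases before the SLC7A1 start and on the minus strand of the window of SLC1A5 start 2. The letters CCCCNCCC, which KLF and SP proteins bind, were in at least 1 window of all 7 members with an entry and in at least 1 window of 39.44% of all genes (36.03% of windows). GTGGGAA, the RBPJ motif, and the palindromic NFI motif, TTGGC and GCCAA with 5 free bases between them, were in 0 of the 7, against 6.691% and 0.03662% of all genes (5.428% and 0.02848% of windows). TGTTTAC, the FOX motif, was on the minus strand of the window of SLC1A5 start 3 and in 2.979% of all windows. All motifs were searched on both strands, no match overlapped another motif, and a match is a run of letters, not a measured binding site.

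In hairpin controls the members fell into a high and a low class by level, in normalised 3′ reads that were not divided by gene length. SLC1A5 was highest with a mean of 293.7 ± 23.5 normalised reads, followed by SLC7A5 at 232 ± 76.8 and SLC3A2 at 217 ± 33.0 (SD, n = 6 each). SLC38A2 averaged 186 ± 31.3, SLC38A1 173 ± 19.6 and SLC7A1 123 ± 21.5 (SD, n = 6 each). The cystine carrier SLC7A11 and the serine carrier SLC1A4 were far lower, at 20.2 ± 5.44 and 12.0 ± 3.38 (SD, n = 6 each). SLC7A1 exceeded SLC7A11, and SLC7A11 exceeded SLC1A4, in 6 of 6 hairpin controls. The order among the high genes was less fixed: SLC7A5 exceeded SLC3A2 in 3 of 6 hairpin controls and SLC3A2 exceeded SLC38A2 in 4 of 6, so these neighbours did not differ beyond their spread. SLC1A5 exceeded SLC7A5 in 5 of 6 and SLC38A2 exceeded SLC38A1 in 5 of 6. Since reads came from transcript ends, the order is one of normalised reads and not of transcript number per length.

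**Figure D1:**
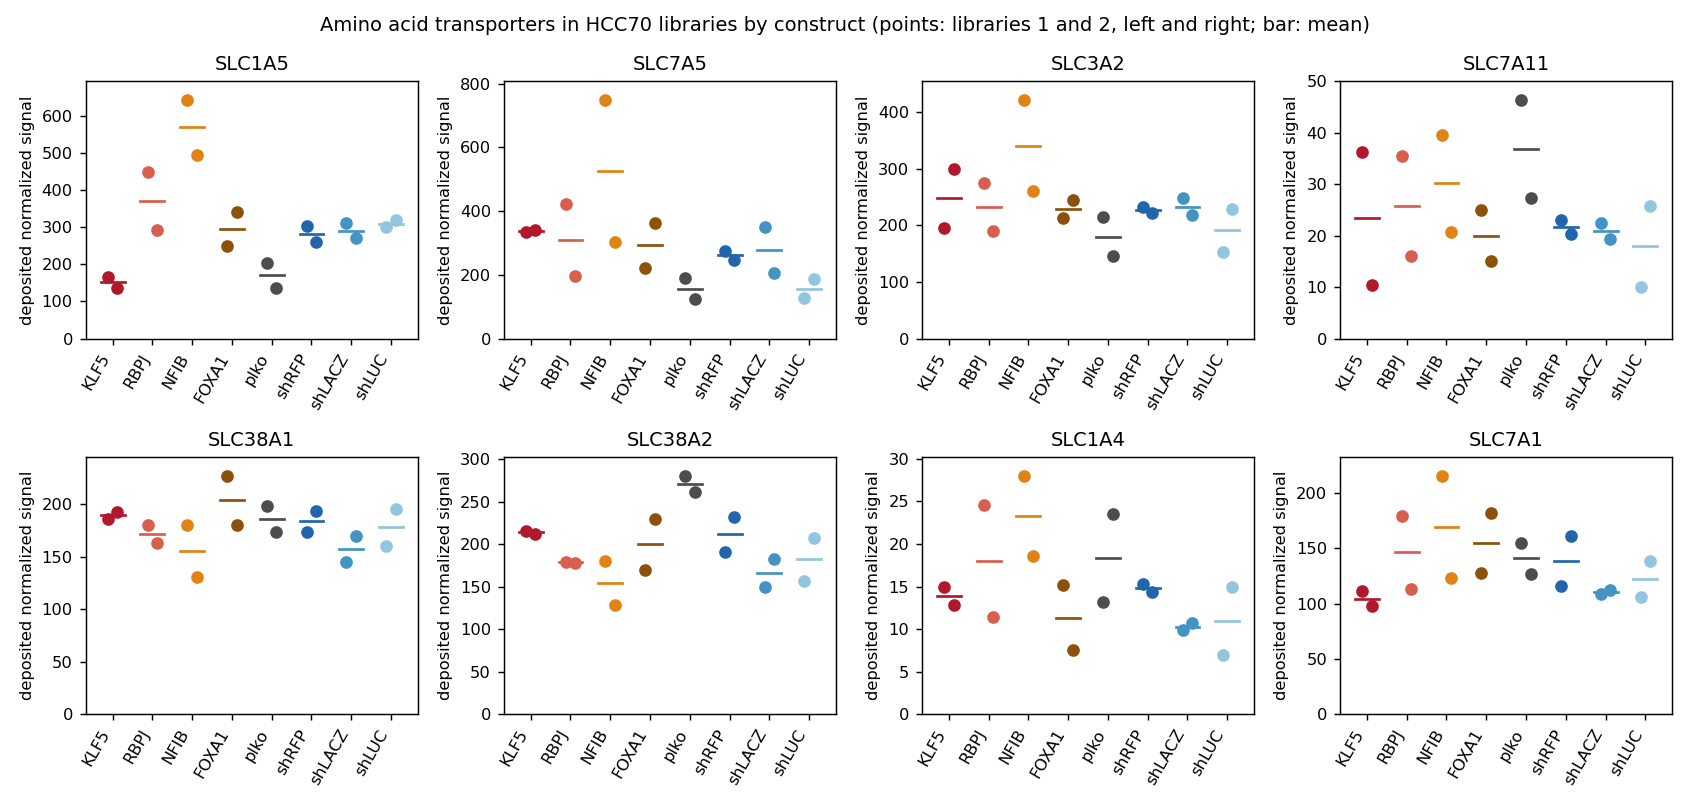
Normalised reads (the deposited normalized signal) of the 8 transporters in each of the 16 libraries, one panel a gene; points are libraries 1 and 2 and bars their mean, with the targeted constructs and plko left of the shRFP, shLACZ and shLUC controls. SLC1A5 lies below all 6 hairpin controls in both KLF5 and both plko libraries and above them in both NFIB libraries, and SLC7A5 reaches its highest value of 748 in NFIB library 1.

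Over all 16 libraries the members differed in how much they varied. SLC38A1 was the steadiest, with a coefficient of variation of 12.7% and a ratio of its highest to its lowest library of 1.74. SLC38A2 followed with 20.6%, SLC7A1 with 24.6% and SLC3A2 with 27.1%. SLC7A5 varied most, with 51.8% and a ratio of 6.01 between NFIB library 1 and plko library 2. SLC1A5 had 43.5%, SLC7A11 42.1% and SLC1A4 39.5%. The last 2 of these rested on few reads, 9 to 143 per library for SLC7A11 and 5 to 99 for SLC1A4, so counting error is part of their spread.

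SLC1A5, the glutamine carrier, was lower with KLF5 hairpins and with plko than in hairpin controls, and it was the only member that passed the test in any comparison. It had 167 and 137 normalised reads in the KLF5 libraries, 203 and 137 in plko libraries, against 304 and 259.9 with shRFP, 309.8 and 269.9 with shLACZ and 299 and 319 with shLUC. Neither the KLF5 nor the plko values overlapped those of the hairpin controls, whose range was narrow. Relative to hairpin controls, SLC1A5 fell in KLF5 libraries by a log2 difference of -0.95 with a standard error of 0.20 (limma, adjusted p = 0.00269). In plko libraries it fell by a log2 difference of -0.81 with a standard error of 0.20 (limma, adjusted p = 0.0159) relative to the same hairpin controls. The 2 comparisons share these 6 control libraries and are not independent of each other.

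Set directly against plko, KLF5 libraries showed no difference in SLC1A5 beyond the spread: the log2 difference was -0.14 ± 0.24, with a 95% interval from -0.65 to 0.36 and an adjusted p of 0.806 in limma. The interval leaves room for a moderate difference either way. The call against hairpin controls was lost without KLF5 library 2 (log2 difference -0.81, adjusted p = 0.0881) and when plko was pooled with the hairpin controls (-0.75, adjusted p = 0.0981). The plko call was lost without plko library 2 (-0.53, adjusted p = 0.181).

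Those calls stand against a broad background. In KLF5 libraries against hairpin controls, 11% of 10826 genes were called, 4.42% as higher and 6.61% as lower, and of the 8 transporters 0 were called as higher and 1 as lower. For 1 of the 8, as for 13.4% of all genes, both KLF5 libraries were below every hairpin control, and for 0 of the 8, against 14.3% of all genes, both were above. In plko libraries against hairpin controls 7.5% of genes were called, 1.88% as higher and 5.63% as lower, and again 0 of the 8 transporters were called as higher and 1 as lower. Between KLF5 and plko 3.44% of genes were called, 2.27% as higher and 1.16% as lower, and 0 of the 8 transporters, with 1 of the 8 at an unadjusted p under 0.05 in limma, as were 2090 of all 10826 genes, and 0 called by edgeR or DESeq2. A share of 1 in 8 is close to these backgrounds, so the number of members called is not particular to the transporters. In bulk libraries such as these, fewer cells of a kind and less RNA per cell cannot be told apart.

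The highest SLC1A5 values were in the NFIB libraries, with 642 and 494 normalised reads against 259.9 to 319 in hairpin controls. Both libraries lay above every control, and the mean was 1.92 times that of the hairpin controls on the fitted scale. The log2 difference of 0.94 ± 0.20 (SE) did not pass limma's adjusted threshold (adjusted p = 0.164), although SLC1A5 ranked 5th of 10826 genes by p, nor did it pass in edgeR (adjusted p = 0.116). It passed in DESeq2 (adjusted p = 0.0111). In the RBPJ libraries SLC1A5 had 448 and 293 normalised reads, so that library 1 was above and library 2 inside the control range. In the FOXA1 libraries it had 250.2 and 341, one on each side of the controls. Among all 6 groups together SLC1A5 differed with an adjusted p of 0.000163 in limma's F test, which called 10.3% of genes, and it was the 1 member of 8 called there.

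SLC1A4, the other carrier of this family among the 8, had 28.0 and 18.6 normalised reads in NFIB libraries against a hairpin control range of 6.93 to 15.3. Its log2 difference was 0.92 ± 0.37 (SE; limma, adjusted p = 0.710). RBPJ library 1 (24.6) and plko library 2 (23.5) were also above the control range, while RBPJ library 2 (11.4) and plko library 1 (13.2) lay inside it. The KLF5 values of 14.9 and 12.8 and the FOXA1 values of 15.1 and 7.51 all lay inside the control range. SLC1A4 passed the test in no comparison, and its lowest count of reads before scaling was 5, in FOXA1 library 2.

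SLC7A5 and SLC3A2, the light and heavy chain of the leucine carrier, varied together from library to library. SLC7A5 had 334 and 341 normalised reads in KLF5, 422 and 195 in RBPJ, 748 and 304 in NFIB, 222 and 363 in FOXA1 and 189.7 and 125 in plko libraries, against 275 and 247 with shRFP, 349 and 207 with shLACZ and 127 and 186 with shLUC. SLC3A2 had 195 and 299.9 in KLF5, 274 and 189 in RBPJ, 421 and 259.9 in NFIB, 213 and 245 in FOXA1 and 214 and 146 in plko libraries, against 233 and 222 with shRFP, 248 and 217 with shLACZ and 153 and 229 with shLUC. Both genes were highest in NFIB library 1 of the 16 libraries. SLC7A5 was lowest in plko library 2 and shLUC library 1, and the same libraries held the lowest SLC3A2 values. Pearson's r between them on the log2 scale was 0.90 over 16 libraries (Spearman's rho 0.81), and 0.83 over the 14 libraries without NFIB. Of 6391 genes with a mean of at least 20 normalised reads, SLC3A2 had the highest r with SLC7A5 and SLC7A5 the highest with SLC3A2. The points share the depth and scaling of each library, and these coefficients are a description.

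**Figure D2:**
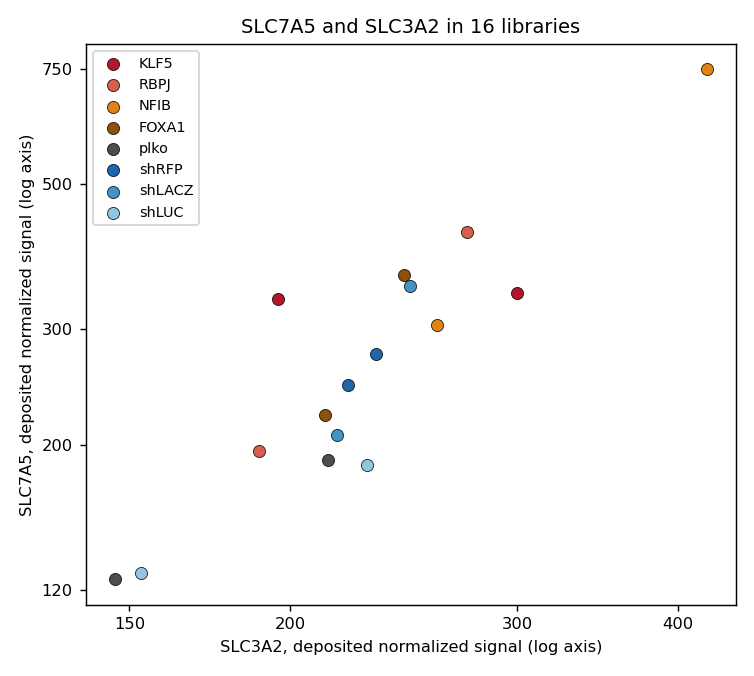
Normalised reads of SLC7A5 (LAT1) plotted against its heavy chain SLC3A2 (CD98), one point a library, both axes on a log scale. Most libraries follow one rising band, with KLF5 library 1 (334 and 195) above it, from plko library 2 and shLUC library 1 at the low end to NFIB library 1 at 748 and 421.

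The light chain moved over a wider span than the heavy chain. The ratio of SLC7A5 to SLC3A2 was 1.78 and 1.17 in NFIB, 1.71 and 1.14 in KLF5, 1.54 and 1.03 in RBPJ and 1.04 and 1.48 in FOXA1 libraries. In plko libraries the ratio was 0.887 and 0.852, and in hairpin controls it ran from 0.813 in shLUC library 2 to 1.41 in shLACZ library 1. Both plko values lay inside the control range.

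None of the group differences of the LAT1 and CD98 genes passed the test. SLC7A5 was 1.11 ± 0.33 higher on the log2 scale in NFIB libraries than in hairpin controls (SE; limma, adjusted p = 0.545), with a control range of 127 to 349 that holds NFIB library 2. Against plko, both KLF5 libraries exceeded both plko libraries in SLC7A5, with a log2 difference of 1.13 ± 0.41 (SE), a 95% interval from 0.29 to 1.97 and an adjusted p of 0.121 in limma. SLC3A2 was above all hairpin controls in both NFIB libraries, with a log2 difference of 0.62 ± 0.23 (SE; limma, adjusted p = 0.678). For any difference among the 6 groups the adjusted p was 0.0668 for SLC7A5 and 0.237 for SLC3A2 in limma's F test. The SLC7A5 value crossed the threshold in edgeR (adjusted p = 0.0424) and without NFIB library 2 (0.0159), RBPJ library 2 (0.0183), RBPJ library 1 (0.0198) or shLACZ library 1 (0.0481); over all alternatives it ran from 0.0159 to 0.193.

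SLC7A11, the cystine carrier that shares the heavy chain, did not follow SLC3A2: their r over the 16 libraries was 0.22. It had 46.3 and 27.3 normalised reads in plko libraries, both above the hairpin control range of 10.1 to 25.9 with a median of 21.4. The log2 difference for plko was 0.84 ± 0.41 (SE; limma, adjusted p = 0.221), and the plko library 1 value was 21 reads. SLC7A11 stood at 39.6 and 20.7 in NFIB, 36.3 and 10.5 in KLF5, 35.6 and 16.1 in RBPJ and 25.0 and 15.0 in FOXA1 libraries. In each of these constructs library 1 was above library 2. One of the 2 values lay inside the control range for NFIB, KLF5 and RBPJ, and both did for FOXA1. Among the other members SLC7A11 was most like SLC1A4, with r = 0.67, both being genes of few reads.

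The sodium-coupled glutamine carriers were the steadiest of the set. SLC38A1 ran from 130.4 in NFIB library 2 to 227 in FOXA1 library 1, against 145 to 196 in hairpin controls, and its log2 differences from hairpin controls lay between -0.17 for NFIB and 0.23 for FOXA1. SLC38A2 had 280.2 and 261 normalised reads in plko libraries, the 2 highest values of the 16, against a median of 187 and a range of 149 to 232 in hairpin controls. Its log2 difference for plko was 0.55 ± 0.19 (SE; limma, adjusted p = 0.0822). SLC38A2 stood at 215 and 212 in KLF5, 179 and 178 in RBPJ, 180.4 and 128 in NFIB and 169.9 and 229.8 in FOXA1 libraries. Both KLF5 libraries were below both plko libraries, with a log2 difference of -0.34 ± 0.24 (SE; limma, adjusted p = 0.465). SLC38A2 ran against SLC1A5 across libraries (r = -0.59, n = 16) and with SLC38A1 (r = 0.62, n = 16).

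SLC7A1, the arginine and lysine carrier, had 215 and 123 normalised reads in NFIB, 179 and 113 in RBPJ and 128 and 182 in FOXA1 libraries, against 106 to 161 in hairpin controls. In each of these constructs 1 library exceeded all controls and the other lay inside their range. It had 111 and 98.0 in KLF5 and 154 and 127 in plko libraries, so that both KLF5 values were below both plko values. Between these groups of 2, SLC7A5 alone of the 8 was higher and SLC38A2 and SLC7A1 were lower without overlap, where 25.1% and 21.7% of all genes were. The log2 difference between KLF5 and plko was -0.42 ± 0.28 (SE; limma, adjusted p = 0.440), and no comparison of SLC7A1 passed the test.

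**Figure D3:**
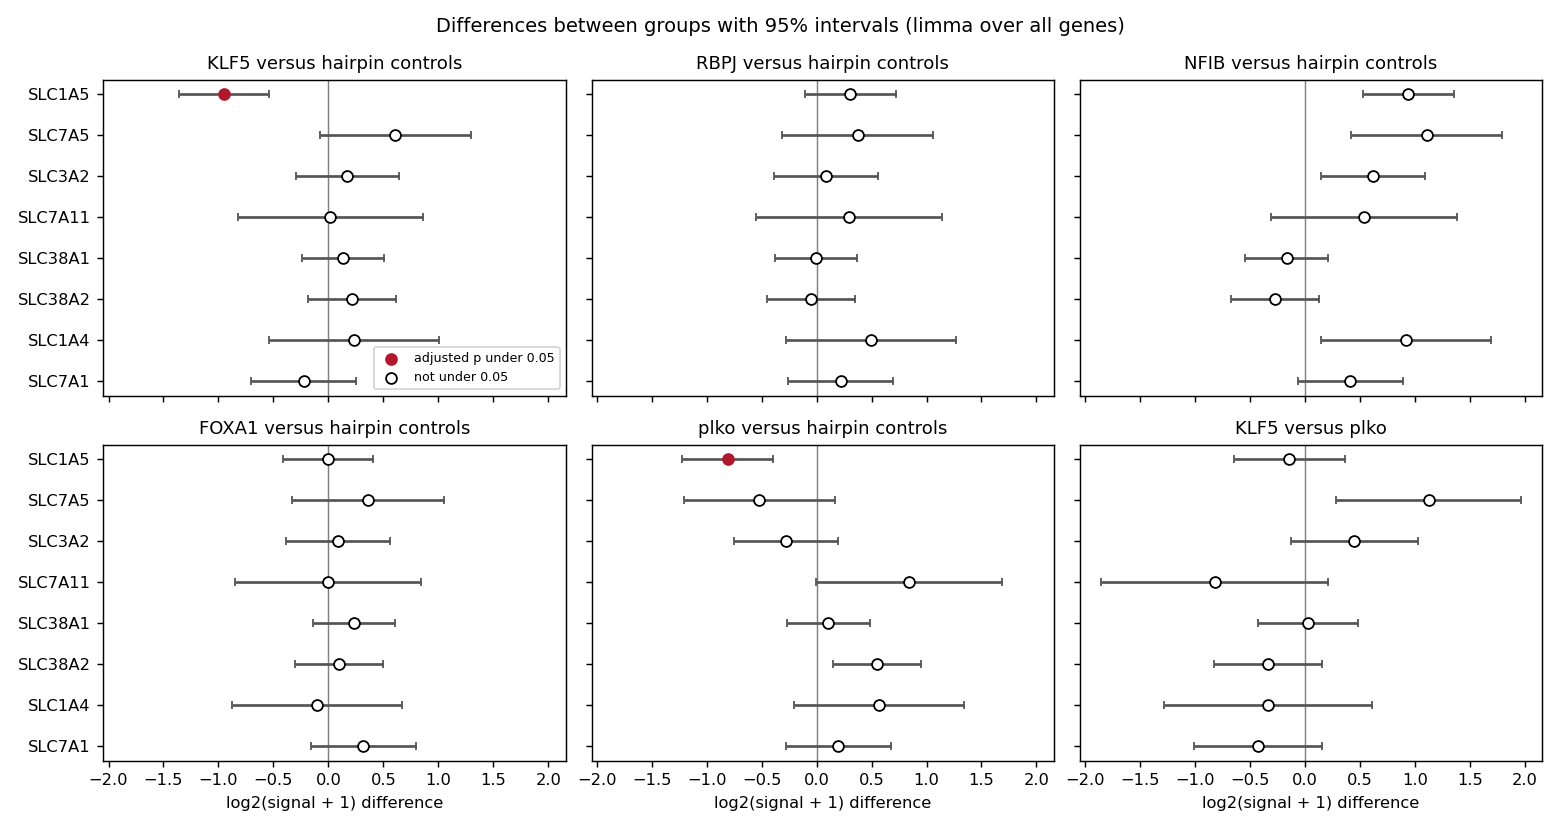
Log2 differences (on log2 of normalised reads + 1) of the 8 transporters in KLF5, RBPJ, NFIB, FOXA1 and plko libraries relative to hairpin controls, and in KLF5 relative to plko, with 95% intervals from limma. The intervals of SLC1A5 for KLF5 (-1.36 to -0.54) and plko (-1.22 to -0.40) lie below 0 and were called; all other members are not called, also where the interval misses 0, as for SLC1A5 in NFIB (0.53 to 1.35).

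Seen by construct, the NFIB libraries held the most members above the controls. Library 1 was above the hairpin control range in 6 of the 8 members and below it in 0, and library 2 was above in 3 and below in 2. Of all 10826 genes, 2294 were above and 1912 below that range in library 1, and 1760 above and 1523 below in library 2. Both libraries were above every hairpin control for 3 of the 8 members, SLC1A5, SLC3A2 and SLC1A4, as they were for 4.97% of all genes tested, and below every control for 0 of the 8, beside 4.47% of all genes. The median log2 difference of the 8 members for NFIB was 0.58, beside 0.04 over all genes. In limma 0 of the 8 were called, in a comparison that called 0.00924% of genes, while 4 of the 8 had an unadjusted p under 0.05, as did 707 of all 10826 genes, edgeR called 0 and DESeq2 called SLC1A5 alone. NFIB itself was at 71.1% of the hairpin control mean in library 1 and at 12.6% in library 2, so that the library with more members above the controls was the one with the higher NFIB level. Library 1 exceeded library 2 by a factor of 2.46 for SLC7A5, 1.62 for SLC3A2 and 1.30 for SLC1A5.

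RBPJ libraries differed in the same manner. Library 1, with RBPJ at 89.5% of the hairpin control mean, was above the control range in 6 of the 8 members, while library 2, with RBPJ at 17.7%, was above it in 0 and below it in 0. Of all 10826 genes, 1796 were above and 1596 below the control range in library 1, and 2234 above and 1940 below in library 2. Both libraries were above every control for 0 of the 8 and below for 0, where 4.19% and 4.03% of all genes were. The ratio of library 1 to library 2 was 2.16 for SLC7A5, 2.21 for SLC7A11, 2.16 for SLC1A4 and 1.53 for SLC1A5. Limma called 0 of the 8 members and 0.0277% of all genes for RBPJ, with 0 of the 8 at an unadjusted p under 0.05, beside 651 of all 10826 genes, and 0 called by edgeR or DESeq2. RBPJ library 1 was also the deepest of the 16. Whether depth or the level of the target bears on these differences was not tested.

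FOXA1 libraries gave 0 of 8 members called in limma, edgeR and DESeq2, where limma called 0.00924% of all genes, and 0 of the 8 had an unadjusted p under 0.05, beside 753 of all 10826 genes. Library 1 was above the control range in 1 member and below it in 1, and library 2 was above in 3. Of all 10826 genes, 1633 were above and 1741 below that range in library 1, and 1739 above and 1913 below in library 2. Both libraries were above every control for 0 of the 8 and below for 0, where 4.58% and 5.83% of all genes were. The median log2 difference of the members was 0.09, beside -0.000717 over all genes. The 95% interval for SLC1A5 ran from -0.42 to 0.41, which leaves room for a moderate change in either direction.

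**Figure D4:**
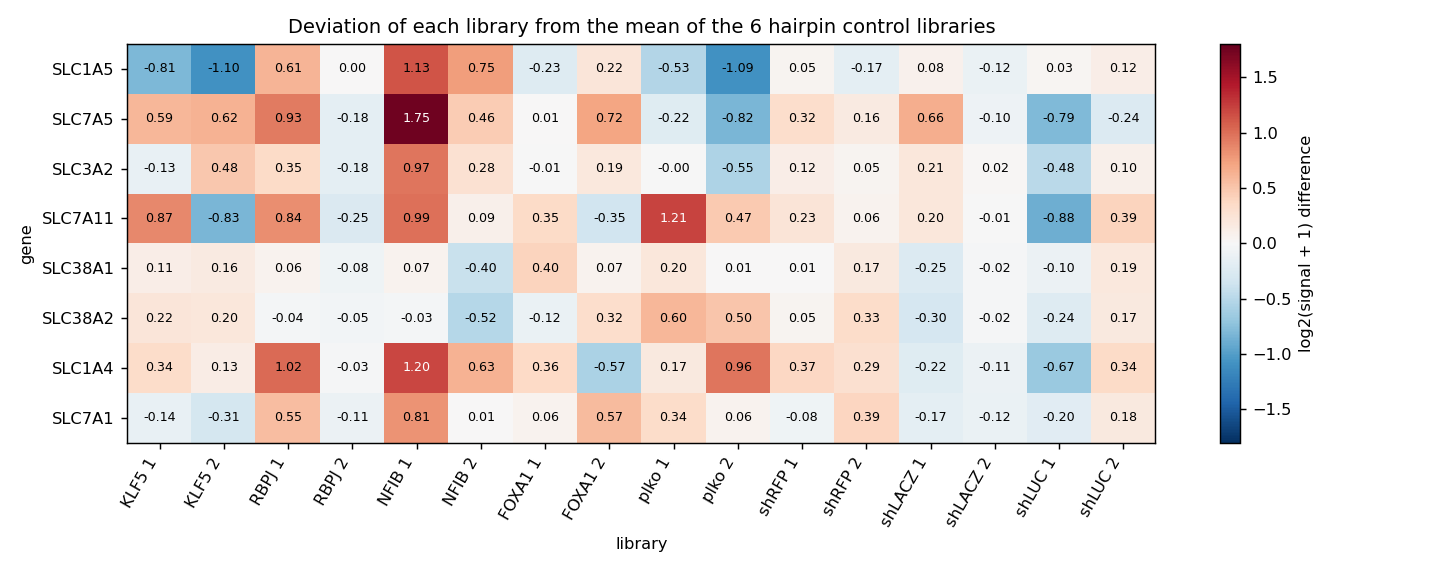
Log2 deviation of each transporter (down) in each library (across) from its mean over the 6 hairpin controls, as a colour scale from lower to higher. NFIB library 1 and RBPJ library 1 are above the controls for most transporters, and the row of SLC1A5 is low in both KLF5 and both plko libraries.

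The members of KLF5 and plko libraries went in both directions. KLF5 library 1 was above the hairpin control range in 1 member and below it in 1, and library 2 was above in 1 and below in 2. In plko, library 1 was above in 3 and below in 1 and library 2 above in 3 and below in 3. Genes at large went both ways as well. Of all 10826 genes, 2687 were above and 2377 below in KLF5 library 1, and 2707 above and 2480 below in KLF5 library 2. In plko library 1, 2976 were above and 2962 below, and in plko library 2, 1920 were above and 2254 below. Both plko libraries were above all hairpin controls for 2 of the 8 members, SLC7A11 and SLC38A2, and below all for 1, SLC1A5, where 9.94% and 12.3% of all genes did so. The medians over the members were 0.15 for KLF5 and 0.15 for plko, beside 0.05 and 0.01 over all genes.

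Summed levels of fibroblast markers were above the hairpin control range in KLF5 and NFIB libraries. The 4 of 7 listed markers in the table, COL1A1, COL1A2, DCN and PDGFRA, summed to 35.5 and 43.2 normalised reads in KLF5 libraries and 38.3 and 40.1 in NFIB libraries, against 8.38 to 25.8 in hairpin controls. COL1A1 held most of that sum, with 27.0 and 29.2 in KLF5 and 24.6 and 32.5 in NFIB libraries against 6.80 to 25.8 in hairpin controls, and DCN was at 0 in 3 of the 6 hairpin controls, with at most 5.83 in any library. COL1A1 was the 1 marker that passed the filter on low values; it was called in KLF5 libraries by limma (adjusted p = 0.0291) and not by edgeR or DESeq2, and it was not called in NFIB libraries (limma, adjusted p = 0.516). Of the leukocyte markers 2 of 5 were in the table, and of the endothelial markers 0 of 3. Their part in the transporter values was not tested.

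Other carriers gave little to set beside the members at the plasma membrane. Of 22 further plasma membrane amino acid carriers 10 were in the table, and in limma, edgeR and DESeq2 0 of the 10 were called in the comparisons of KLF5, RBPJ, NFIB, FOXA1 or plko with hairpin controls or of KLF5 with plko. At an unadjusted p under 0.05 limma gave 2 for RBPJ, 1 for NFIB and 1 for KLF5 against plko, and 0 for the others. The glycine carrier SLC6A9 was the most abundant of them, and its lowest value, 69.2 normalised reads, was in RBPJ library 2. SLC6A14, a carrier of neutral and cationic amino acids, had 8.95 and 6.64 in RBPJ and 10.3 and 7.17 in NFIB libraries, all below the hairpin control range of 12.0 to 51.5, with adjusted p of 0.216 and 0.516 in limma.

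Carriers of organelle membranes were called with KLF5 hairpins. All 14 listed were tested, and 3 of the 14 rose in KLF5 libraries relative to hairpin controls, beside 4.42% of all genes called as higher, and 0 fell, beside 6.61% called as lower. EdgeR called 1 more, SLC66A1, a lysosomal carrier of cationic amino acids, with 0.711 and 0 normalised reads in KLF5 libraries against 1.41 to 6.30 in hairpin controls (limma, adjusted p = 0.0513). SLC38A10, a relative of SLC38A1 and SLC38A2, had 86.0 and 88.7 normalised reads in KLF5 libraries against 19.2 to 41.0 in hairpin controls, a log2 difference of 1.40 ± 0.26 (SE; limma, adjusted p = 0.000886). It was also higher in KLF5 than in plko libraries, which had 30.9 and 33.5 (log2 difference 1.41, limma, adjusted p = 0.0171). SLC25A22, a mitochondrial glutamate carrier, had 23.5 and 22.2 in KLF5 libraries against a mean of 10.3 in hairpin controls (limma, adjusted p = 0.0291), and SFXN3, a mitochondrial serine carrier, 39.8 and 35.0 against 17.7 (1.06, adjusted p = 0.0397). In plko libraries SLC15A4, a lysosomal histidine and peptide carrier, had 41.9 and 31.6 against a mean of 17.5 in hairpin controls (log2 difference 1.06, limma, adjusted p = 0.0259).

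Genes of the amino acid response stood beside the transporters in the same libraries. The list held 24 genes of the ATF4 pathway, none of them a member. In NFIB libraries 0 of the 24 were called in limma, edgeR or DESeq2, and 8 had an unadjusted p under 0.05, all of them with a positive difference, beside 707 of all 10826 genes in either direction. The log2 difference was positive for 22 of the 24, with a median of 0.51 beside 0.04 over all genes. By library, the median deviation from hairpin controls was 0.93 and 0.15 in NFIB, 0.75 and -0.64 in RBPJ, 0.02 and -0.08 in KLF5, -0.01 and 0.31 in FOXA1 and 0.67 and -0.08 in plko libraries, against -0.29 to 0.32 in single hairpin controls. The corresponding medians of the 8 transporters were 0.98 and 0.18 in NFIB, 0.58 and -0.10 in RBPJ, 0.17 and 0.15 in KLF5, 0.04 and 0.20 in FOXA1 and 0.19 and 0.03 in plko libraries, against -0.36 to 0.17 in single hairpin controls. NFIB library 1 and RBPJ library 1 were thus highest in both lists, whereas plko library 1 stood at 0.67 in the response genes and at 0.19 in the transporters.

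**Figure D5:**
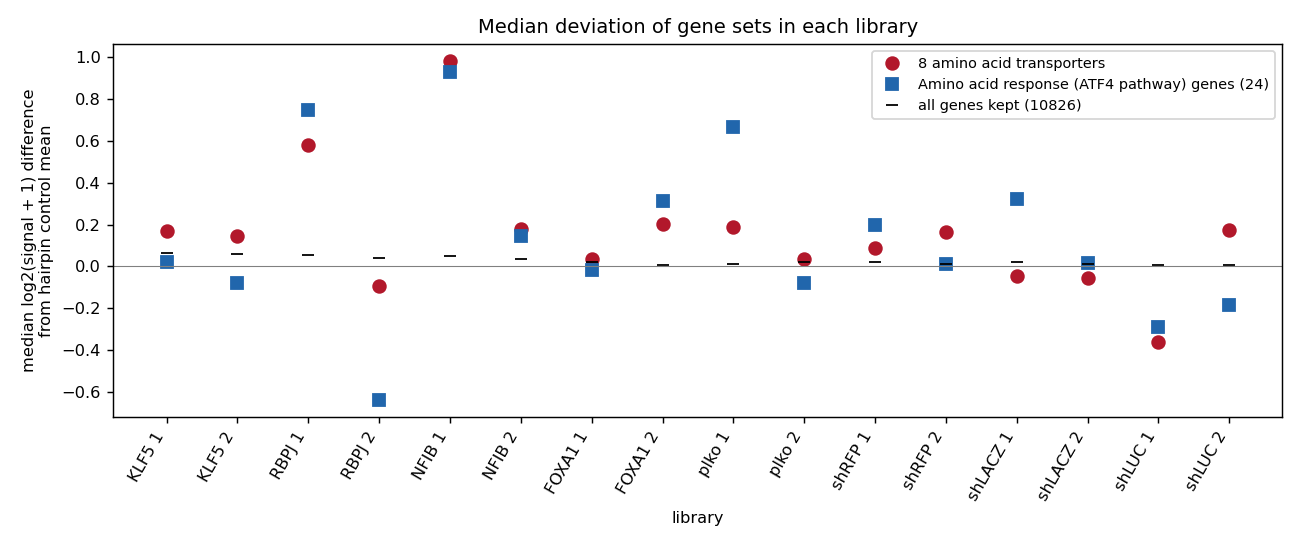
Median log2 deviation from the hairpin control means of the 8 transporters and of the 24 amino acid response genes in each library, with dashes for the median of all genes tested. Both medians are highest in NFIB library 1 (0.98 and 0.93) and high in RBPJ library 1 (0.58 and 0.75).

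ASNS, asparagine synthetase and a known ATF4 target, had 291 and 158 normalised reads in NFIB, 278 and 25.6 in RBPJ, 83.2 and 64.2 in KLF5, 100.1 and 135 in FOXA1 and 368 and 111 in plko libraries, against 54.2 to 172 in hairpin controls. CHAC1, an enzyme that breaks down glutathione, had 161 and 33.3 in NFIB and 50.2 and 7.11 in RBPJ libraries, against 13.2 to 56.3 in hairpin controls. ATF4 itself had 357 and 144 in NFIB, 301 and 175 in RBPJ and 357 and 204 in plko libraries, against 127 to 265 in hairpin controls. Each of these genes had a library 1 above or near the top of the control range and a library 2 inside or below it in NFIB and RBPJ. In KLF5 libraries 1 of the 24 response genes rose, ALDH18A1, an enzyme of proline synthesis (log2 difference 0.87, limma, adjusted p = 0.0220), and 1 fell, the transcription factor ATF5 (-1.11, adjusted p = 0.0322). In plko libraries ATF5 fell as well (-1.12, limma, adjusted p = 0.0407), relative to the same hairpin controls. Limma called 4.42% of all genes as higher and 6.61% as lower in KLF5 libraries, and 5.63% as lower in plko libraries. A share of 1 in 24 is not above these backgrounds.

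By likeness over the 16 libraries, the 3 genes nearest each member were taken from 6391 genes by Pearson's r on the log2 scale. After SLC3A2, SLC7A5 was nearest to CHAC1 (r = 0.84) and DERL1 (0.80), and SLC3A2 was nearest to DERL1 (0.86) and ARHGEF2 (0.82) after SLC7A5. SLC1A5 was nearest to PYGO2 (0.89), PML (0.88) and CTNNA1 (0.87). SLC38A2 was nearest to BAZ1A (0.85), TOMM70 (0.84) and ZFR (0.83), and SLC38A1 to RIF1 (0.84), PUM3 (0.83) and STOM (0.80). SLC7A1 was nearest to ZC3H14 (0.86), PMAIP1 (0.84) and MAP1LC3B (0.76). The low genes SLC7A11 and SLC1A4 reached 0.80 with ERRFI1 and 0.78 with MORF4L2 at most. These are the highest of 6391 coefficients over 16 points that share constructs, depth and scaling.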

How the data were processed

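The authors' deposited table gives a signal per gene and library: read counts divided by one DESeq2 size factor per library, per the file's name. Every deposited value was a whole multiple of one smallest step within a tolerance of 0.05 reads, so whole reads could be recovered. Libraries were made by 3′ cDNA synthesis and in vitro transcription after the CEL-Seq protocol, barcoded in batches of 12 samples, per the labels' protocols, which also mention repeat runs of unnamed samples. Batch therefore could not be set against group. The build GRCh37 comes from the submitters' processing notes, while for aligner, counter, filters and molecular identifiers the sources used here name none. Reads without molecular identifiers are not independent molecules.

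Gene identifiers were matched to symbols for 11259 of 11282 genes. The main test was limma 3.58.1 (R 4.3.3) with a mean trend on log2(normalised value + 1), 2-sided, on 6 groups (KLF5, RBPJ, NFIB, FOXA1, plko and the 6 hairpin controls) and all 16 libraries. A gene entered when 2 or more libraries reached a value of 5, which left 10826 genes, all 8 transporters among them, and p-values were adjusted over these by Benjamini-Hochberg. Fold changes are on that log2 scale, which understates changes of low genes. Recovered reads were tested with edgeR 4.0.16 (quasi-likelihood) and DESeq2 1.42.0 as alternatives. Other alternatives were pseudocounts of 0.5 and 5, no filter, TMM or total scaling, plko pooled with the controls, a replicate block and each library left out. The procedure was tested on simulated data. In 2 columns of the table the name matched no sample, and these were not used. The labels name no separate cultures, so p-values measure the spread between these libraries.

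The transporters and lists were chosen with earlier results of these data known, so their counts are not independent evidence. All transporters and targets were named, the called members of each list (at most 6, smallest adjusted p first), up to 3 abundant uncalled ones, and the 3 genes of highest r with each transporter. ASNS, CHAC1, ATF4, SLC6A14, SLC66A1, DCN and COL1A1 were named after their values were seen. Promoter windows come from RefSeq (GRCh38.p14). Transcript ends of the transporters, compared with GENCODE transcripts, had no near-identical copy in another gene. Some genes of the lists are not reported here.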

Additional observations from a re-analysis of the deposited data

Results flagged for a closer look

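SLC3A2, the heavy chain CD98, was low in 1 hairpin control. Library 1 of shLUC had 153 normalised reads of SLC3A2, while the other 5 hairpin controls had 217 to 248, and its distance from the next library was 0.679 of the whole range of the group. The same library had the lowest SLC7A5, SLC7A11, SLC1A4 and SLC7A1 of the hairpin controls. Chance marks about 1 in 20 groups in this way, and the 8 transporters were tested in the hairpin controls.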

How the results depend on the processing

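No called difference of a transporter changed direction under any alternative run. Of the 48 differences between groups for the 8 transporters, 19 changed sign under at least 1 alternative, 0 of them called. The number of genes with edgeR on recovered reads was 1171 for KLF5 against hairpin controls, and 957 for any difference among the groups against 1112 in limma. The number of genes called in KLF5 against hairpin controls was 1194 and fell to 581 with plko pooled with the controls. KLF5 against plko gave 372 genes, and 146 in edgeR. For plko against hairpin controls there were 812, with 382 in edgeR and 496 in DESeq2. RBPJ gave 3, with 9 at a pseudocount of 5, 1 in edgeR and 29 in DESeq2. NFIB gave 1, with 2 under TMM scaling, 0 in edgeR and 4 in DESeq2. FOXA1 gave 1, with 2 at a pseudocount of 5 and 2 in DESeq2. Leaving out 1 library gave 363 (without KLF5 1) to 1318 for KLF5, 0 (without plko 1) to 960 (without plko 2) for KLF5 against plko, and 131 (without plko 1) to 1117 for plko. It gave 0 to 204 (without RBPJ 1) for RBPJ, 0 to 4 for NFIB, 0 to 30 (without FOXA1 1) for FOXA1 and 449 to 1854 for any difference among groups. The cause was not tested. In plko libraries the calls of SLC15A4 and ATF5 were not made by edgeR or DESeq2. The KLF5 transcript itself was no longer called as lower without KLF5 library 2 (log2 difference -0.64, adjusted p = 0.169), RBPJ was called without RBPJ library 1 (-2.37, adjusted p = 4.57e-05) and NFIB without NFIB library 1 (-2.96, adjusted p = 2.86e-06), all in limma.

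Replicate numbers did not pair the libraries: deviations of same-numbered libraries correlated between -0.19 and 0.22, over 0.1 in 3 of 28 pairs. With a replicate block the counts were 1225 for KLF5, 377 for KLF5 against plko, 854 for plko, 3 for RBPJ, 1 for NFIB, 1 for FOXA1 and 1218 for any difference, and the block changed no member's call except SLC7A5 in the test of any difference (adjusted p = 0.0488). SLC1A4 and SLC7A11, with as few as 5 and 9 reads in a library, are limited by depth, as is plko library 1.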

Other observations

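Among enzymes of glutamine and glutamate metabolism, GOT2, the mitochondrial aspartate aminotransferase, fell in KLF5 libraries. It had 59.7 and 71.2 normalised reads in KLF5 libraries against a mean of 124 in hairpin controls (log2 difference -0.91, limma, adjusted p = 0.00307).

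Of 15 glutathione and NRF2 genes in the table, 2 fell in KLF5 libraries relative to hairpin controls, beside 6.61% of all genes called as lower. PGD, an enzyme of the pentose phosphate pathway, had 82.5 and 59.5 normalised reads in KLF5 libraries against a mean of 227 in hairpin controls (log2 difference -1.67, limma, adjusted p = 7.21e-06). GSS, glutathione synthetase, had 14.9 and 7.001 in KLF5 libraries against 48.0 in hairpin controls (-2.11, limma, adjusted p = 2.92e-05). In plko libraries PGD (94.9 and 81.8 normalised reads), GSS (22.1 and 21.7) and OSGIN1, which had few reads, fell relative to hairpin controls, and the thioredoxin reductase TXNRD1 rose (214 and 169 against a mean of 112 in hairpin controls, limma, adjusted p = 0.0332). The comparisons share the hairpin controls.

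Of 22 tested genes of amino acid sensing by mTORC1, 1 rose and 2 fell in KLF5 libraries relative to hairpin controls, beside 4.42% and 6.61% of all genes. RRAGA, a Rag GTPase, had 76.8 and 84.0 normalised reads in KLF5 libraries against a mean of 188 in hairpin controls (log2 difference -1.21, limma, adjusted p = 0.000205), and LAMTOR2 fell by 0.88 on the log2 scale (limma, adjusted p = 0.0345). LAMTOR1, another subunit of the lysosomal Ragulator complex, had 210.4 and 256 against a mean of 147 (0.66, limma, adjusted p = 0.0219). Against plko, limma called LAMTOR1 and FLCN as higher and RRAGA as lower in KLF5 libraries. These were 2 and 1 of the 22, beside 2.27% and 1.16% of all genes. In plko libraries limma called FLCN and TSC2 as lower than in hairpin controls, 2 of the 22, beside 5.63% of all genes. FLCN was called by neither edgeR nor DESeq2 in these comparisons, and for plko against hairpin controls edgeR called 0 of the 22. FLCN had 0 and 0.620 normalised reads in plko libraries, too few for a fold. For RBPJ, NFIB and FOXA1, limma, edgeR and DESeq2 called 0 genes in each of these 3 lists.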
